A study of Bos taurus with 6 samples.

Results

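Genes of the epithelial junctions were examined in bovine blastocysts grown from oocytes matured with or without melatonin (MT). The 9 genes were CDH1 and CTNNB1 of the adherens junction, TJP1, OCLN, F11R, CLDN4, CLDN6 and CLDN7 of the tight junction, and DSP of the desmosome. They were taken from the deposited table by gene symbol, and each symbol matched exactly 1 of the 36075 genes listed. DSP is neither a tight nor an adherens junction gene, and it is described here as the desmosomal member.

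The outer layer of the blastocyst, the trophectoderm, is an epithelium that pumps fluid into the cavity and keeps it there with a belt of junctions. In the adherens junction, the cadherin spans the membrane and holds neighbouring cells, while catenins tie it to actin. In the tight junction just above it, claudin strands set what passes between the cells, and occludin and JAM proteins lie beside them, all attached to scaffold proteins of the ZO family. Desmosomes anchor keratin filaments at the same cell borders, and desmoplakin is their link to the keratins.

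All blastocysts came from oocytes of slaughterhouse ovaries that were matured, fertilized and cultured in vitro. In the control group, oocytes were matured for 22 h without MT, and in the MT-treated group the maturation medium held 1e-07 mol/L MT. Each group had 3 libraries from 3 in vitro production runs, and each library was made from a pool of 3 blastocysts, so the p-values measure the spread between pools. The concentration, the time and the pool size come from the study's methods and are not in the labels. Whole blastocysts hold trophectoderm, inner cell mass and hypoblast together, and fewer cells of a type cannot be told apart from less RNA per cell.

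Values were in TPM, a transcript abundance corrected for gene length and library total, so levels can be compared between genes. The deposited values did not sum to an equal total, with 936783 to 937698 per control library and 912686 to 913707 per MT-treated library. The depth behind them is unknown, because TPM keeps no counts. The groups stood far apart across the whole transcriptome. Between 8854 and 8953 genes were above 0 in a control library and between 14372 and 14408 in an MT-treated library, while libraries of the same group correlated with a Pearson r of at least 0.991 across the genes tested, which are not independent replicates. Of 11953 genes tested with limma on log2(TPM + 1), 95.7% were called at an adjusted p under 0.05 (61.6% higher and 34.1% lower in MT-treated blastocysts), and the groups did not overlap for 96.1%. A call or a lack of overlap is therefore the usual outcome for a gene in these data, and the size of a difference says more than its call. Relative to the median of the 5988 genes with at least 1 TPM in every library, values of MT-treated libraries were shifted by -0.48 on the log2 scale. Differences with that shift removed are called centred here.

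The trophectoderm keratins KRT8 and KRT18 were at 6756 TPM or more and at 2726 TPM or more in every library, and GATA3 and POU5F1 were present throughout. CDX2 and NANOG, however, were listed at 0 in all control libraries, and SOX2 was at most 0.02 TPM there. In all, 4037 of the genes tested were at 0 in every control library. Whether a transcript at 0 was absent, or was missed in making or counting the control libraries, cannot be told apart here, and this limit holds for every gene described below as at 0 in control. The summed TPM of 14 trophectoderm markers ranged from 12016 to 12338 in control and from 11250 to 11646 in MT-treated blastocysts, with 9 higher and 5 lower. For the inner cell mass list (10 tested, 4 higher, 3 lower) the sums were 649.6 to 656 and 561.5 to 564 TPM. Those of the hypoblast list (8 tested, 6 higher, 2 lower) were 1404 to 1406 and 1370 to 1375 TPM. CTSV held most of the hypoblast sum, with means of 1159 TPM in control and 1108 TPM in MT-treated libraries. That sum therefore says little about other hypoblast genes, such as GATA6, with means of 0.327 TPM in control and 32.0 TPM with MT. Of the markers of cumulus and granulosa cells, 3 were tested (1 higher, 2 lower), with sums of 229.6 to 236 and 202 to 206 TPM. Across all libraries FSHR had 15.03 to 19.21 TPM, CYP11A1 77.55 to 84.05 TPM and HSD3B1 104.73 to 139.85 TPM. CYP19A1 was at most 0.01 TPM. The sums of the oocyte list fell between 45.5 and 49.3 in control and 27.2 and 29.4 in MT-treated libraries (2 tested, 1 higher, 1 lower), those of the sperm list between 90.6 and 97.5 and between 8.04 and 9.29 (2 tested, both lower), those of the blood list between 32.8 and 35.1 and between 161 and 181 (3 tested, all higher), and those of the mesenchyme list between 206 and 209 and between 482 and 485 TPM (5 tested, 4 higher). Single genes also carried other sums. KRT8 and KRT18 held most of the trophectoderm sum, and FN1 held most of the mesenchyme sum, with means of 206 TPM in control and 461 TPM with MT. The part of these marker differences in the junction results was not tested.

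All 9 junction genes were above 0 in every library and passed the filter of at least 1 TPM in at least 3 libraries. At an adjusted p under 0.05 by limma, 6 were higher in MT-treated than in control blastocysts, 1 was lower and 2 were not called. The groups did not overlap for 7 of the 9. Among all genes tested, 61.6% were higher, 34.1% lower and 4.31% not called, and the groups did not overlap for 96.1%. DSP and CLDN7 rose by more than 2-fold from under 1 TPM, OCLN fell by more than 2-fold, and CTNNB1, TJP1, CDH1 and F11R rose by less. Among all genes tested, 51.0% were called with a rise and 19.6% with a fall of at least 2-fold, 70.6% in all, and 3 of the 9 junction genes reached that size. Which members passed 2-fold depended on the scaling, since CTNNB1 did so when centred and after quantile normalization, TJP1 did so when centred, and DSP did not after quantile normalization. CLDN6 and CLDN4, the most abundant members, differed little between the groups. The median difference of the 9 genes was 0.36 on the log2 scale, beside 1.12 for all genes tested. Of all genes tested, 33.8% were at 0 in every control library, whereas no member was. The median level of the 5988 genes with at least 1 TPM in every library differed the other way, by -0.48. The exact permutation tests below compare 3 libraries with 3, two-sided, and 0.1 is the smallest p they can give.

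**Figure D1:**
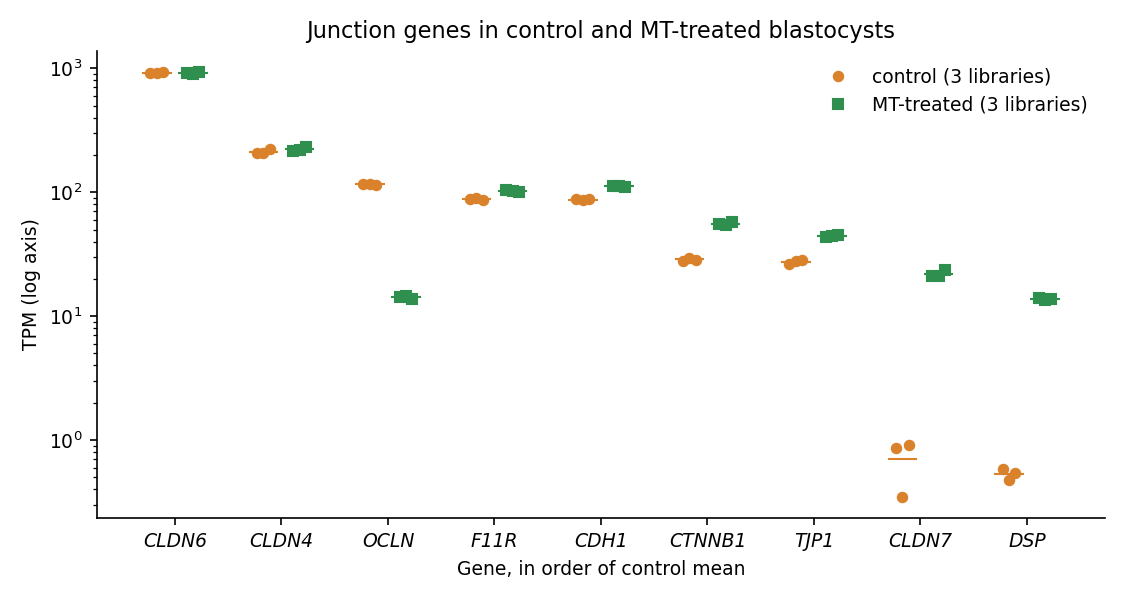
TPM of the 9 junction genes on a log axis, with each point a library (circles control, squares MT-treated, 3 each) and each line a group mean, ordered by control mean. CLDN6 and CLDN4 points of both groups lie together, the OCLN points fall from about 116 to about 14 TPM, and the CLDN7 and DSP points rise from under 1 TPM.

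CDH1 (ENSBTAG00000015991) encodes E-cadherin, the adhesion receptor of the adherens junction. Control blastocysts had 87.62, 85.81 and 87.35 TPM of it, against 112.9, 112.36 and 110.68 TPM with MT. Every MT-treated value lay above every control value, with coefficients of variation of 1.12% (control) and 1.03% (MT-treated). The ratio of the mean TPM was 1.29, and the difference on the log2(TPM + 1) scale was 0.36 (standard error 0.02, adjusted p = 2.65e-06 by limma). This was a small difference for these data, larger than that of 12.4% of the genes tested. It was 0.84 when centred and 0.64 after quantile normalization.

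CTNNB1 (ENSBTAG00000016420) encodes beta-catenin, which binds the cytoplasmic tail of E-cadherin and also acts as a transcriptional coactivator in WNT signaling. Control libraries held 28.06, 29.49 and 28.4 TPM, and MT-treated libraries held 54.92, 54.69 and 57.59 TPM. The groups did not overlap, the means differed 1.95-fold, and the log2 difference was 0.94 (standard error 0.03, adjusted p = 3.47e-07 by limma). The difference was 1.42 when centred and 1.14 after quantile normalization. CTNNB1 rose more than CDH1 in each case. Within a library, CTNNB1 stood at 0.320, 0.344 and 0.325 of the CDH1 level in control and at 0.486, 0.487 and 0.520 in MT-treated blastocysts. Such a ratio is not moved by the scaling of a library, and the 3 MT-treated ratios lay above the 3 control ratios (exact permutation test, two-sided, p = 0.1, and 0.117 after Benjamini-Hochberg adjustment over 7 ratios).

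CTNNA1 encodes an alpha-catenin, which joins beta-catenin to actin, and it moved against CTNNB1. Its mean was 93.8 ± 0.797 TPM in control and 62.5 ± 1.72 TPM with MT (SD, n = 3 each). The log2 difference of -0.58 (adjusted p = 1.19e-06 by limma) shrank to -0.10 when centred. Control libraries held 3.33, 3.21 and 3.29 CTNNA1 transcripts per CTNNB1 transcript, whereas MT-treated libraries held 1.17, 1.14 and 1.05. CTNNA1 thus stood closer to the CTNNB1 level in MT-treated blastocysts, with no overlap of the ratios (exact permutation test, two-sided, p = 0.1, adjusted 0.117). This ratio covers CTNNA1 alone among the alpha-catenin genes. CTNNA2 had means of 58.5 TPM in control and 48.7 TPM with MT. CTNNA3 was at 0 in control and had a mean of 102.7 TPM with MT.

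TJP1 (ENSBTAG00000015398) encodes ZO-1, the scaffold to which claudins, occludin and JAM proteins attach. Its TPM values were 26.41, 27.85 and 28.14 in control and 43.79, 44.29 and 45.5 in MT-treated blastocysts. All MT-treated values were above the control values, by 1.62-fold in the mean and by 0.68 on the log2 scale (standard error 0.03, adjusted p = 2.03e-06 by limma). When centred the TJP1 difference was 1.16, and with quantile normalization it was 0.88. TJP3, which encodes ZO-3, was chosen after its values were seen, and it had 0.27, 0.18 and 0.2 TPM in control and 11.36, 10.86 and 11.45 TPM in MT-treated libraries (adjusted p = 3.41e-09 by limma). After quantile normalization the difference of TJP3 was 0.15 and no longer called.

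OCLN (ENSBTAG00000000561) encodes occludin, a tight junction membrane protein with a MARVEL domain. Its transcript was at 116.55, 116.38 and 114.63 TPM in control libraries and at 14.39, 14.54 and 13.84 TPM in MT-treated libraries. The groups lay far apart, with a mean 8.13-fold higher in control blastocysts. OCLN was the only member that fell, by 2.94 on the log2 scale (standard error 0.03, adjusted p = 9.78e-10 by limma), a difference larger in size than that of 65.5% of the genes tested. It fell in every scaling tried, by 2.46 when centred and by 3.61 after quantile normalization. Relative to TJP1, whose product binds it, OCLN went from 4.41, 4.18 and 4.07 transcripts per TJP1 transcript in control to 0.329, 0.328 and 0.304 in MT-treated libraries (exact permutation test, two-sided, p = 0.1, adjusted 0.117).

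The other MARVEL domain genes of the tight junction, MARVELD2 (tricellulin, found where 3 cells meet) and MARVELD3, had MT-treated values above the control values. MARVELD2 had 7.6, 7.29 and 7.6 TPM in control and 15.45, 15.26 and 14.71 TPM in MT-treated libraries, and MARVELD3 was at 0 throughout the control group against 3.94, 4.05 and 3.67 TPM with MT. After quantile normalization the difference of MARVELD2 changed sign, to -0.26, and that of MARVELD3 was no longer called. OCLN made up 93.9% ± 0.166 of the summed TPM of these 3 genes in control and 42.8% ± 0.205 in MT-treated blastocysts (SD, n = 3 each), a share that was computed after the values were seen. Their summed TPM was 122 to 124 in control and 32.2 to 33.9 in MT-treated libraries.

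F11R (ENSBTAG00000017846) encodes JAM-A, an immunoglobulin-type adhesion protein of the tight junction. Control libraries gave 87.52, 90.03 and 86.59 TPM, and MT-treated libraries gave 104.87, 101.87 and 100.71 TPM. The values did not overlap, but the rise was small, 1.16-fold in the mean and 0.22 on the log2 scale (standard error 0.03, adjusted p = 0.000200 by limma), larger than that of 7.64% of the genes tested. Centring gave 0.70 for F11R and quantile normalization 0.49. F11R rose less than TJP1, whose product it binds, and the ratio of F11R to TJP1 went from 3.31, 3.23 and 3.08 in control to 2.39, 2.30 and 2.21 in MT-treated libraries (exact permutation test, two-sided, p = 0.1, adjusted 0.117). In the RefSeq annotation the span of F11R overlaps that of TSTD1, which had 16.57 to 18.4 TPM in control and 57.45 to 62.48 TPM in MT-treated libraries. Whether the counting used strand is not given in the sources used here, so reads in the overlap cannot be told apart.

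CLDN6 (ENSBTAG00000045901), a claudin of embryonic epithelia, was the most abundant member in all 6 libraries. It had 916.87, 908.66 and 932.99 TPM in control and 913.79, 891.05 and 925.25 TPM in MT-treated blastocysts. The groups overlapped, with 2 of the 3 MT-treated values inside the control range. The log2 difference was -0.02 (standard error 0.02, adjusted p = 0.444 by limma), with a 95% interval that runs from 0.960-fold to 1.02-fold. Only 0.561% of the genes tested had a difference as small or smaller. The direction was not settled, since the difference was 0.02 with each library rescaled to the same sum and 0.46 when centred, where it was called. The span of CLDN6 overlaps that of TNFRSF12A in RefSeq, and that gene had 124.21 to 125.5 TPM in control and 174.31 to 178.94 TPM in MT-treated libraries.

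CLDN4 (ENSBTAG00000026278), a claudin known for sealing epithelia, was second in abundance. Its values were 207.08, 208.5 and 221.37 TPM in control and 215.56, 219.59 and 232.49 TPM in MT-treated libraries. The groups overlapped, with the highest control value above 2 of the 3 MT-treated values. The log2 difference was 0.07 (standard error 0.04, adjusted p = 0.142 by limma), with a 95% interval from 0.980-fold to 1.12-fold. CLDN4 was called higher with rescaling to the same sum (0.10, adjusted p = 0.0401 by limma), after quantile normalization (0.27) and when centred (0.55). It was also called in a fit that treats same-numbered libraries as pairs (0.07, adjusted p = 0.00744 by limma).

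CLDN7 (ENSBTAG00000019448), a claudin of many simple epithelia, showed the largest rise of the members. Control libraries held 0.86, 0.35 and 0.92 TPM, and MT-treated libraries held 20.95, 21.15 and 23.35 TPM. The group means of 0.71 ± 0.313 and 21.8 ± 1.33 TPM (SD, n = 3 each) stood in a ratio of 30.7, which rests on control values close to 0. On the log2(TPM + 1) scale the difference was 3.75 (standard error 0.14, adjusted p = 5.53e-07 by limma), and with a pseudocount of 0.1 it was 4.85. After quantile normalization it was 2.22. CLDN7 thus stood closer to the CLDN4 level with MT, with 241, 596 and 241 CLDN4 transcripts per CLDN7 transcript in control and 10.3, 10.4 and 9.96 in MT-treated libraries (exact permutation test, two-sided, p = 0.1, adjusted 0.117).

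Claudins as a family were described over the 22 claudin genes in the table, of which 12 were listed at 0 in all libraries. In each control library 6 claudins were above 0, and in each MT-treated library 10 were. Their summed TPM was 1297 to 1329 in control and 1348 to 1393 in MT-treated blastocysts. CLDN6 made up 70.5%, 70.1% and 70.2% of that sum in control and 66.9%, 66.1% and 66.4% in MT-treated libraries, a drop of 3.79 percentage points (exact permutation test, two-sided, p = 0.1). CLDN4 supplied 16.2% ± 0.389 of the sum in control and 16.3% ± 0.457 in MT-treated blastocysts (SD, n = 3 each; exact permutation test, two-sided, p = 0.9). That of CLDN7 rose from 0.0541% ± 0.0235 to 1.59% ± 0.0744 (SD, n = 3 each; exact permutation test, two-sided, p = 0.1).

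Below CLDN6 and CLDN4, the make-up of the claudins differed. CLDN10, which forms ion channels between cells, and CLDN1, a barrier-forming claudin, were at 0 throughout the control group against 79.89, 77.36 and 74.7 TPM and 30.12, 29.18 and 31.42 TPM with MT. CLDN12 and CLDN5 were likewise at 0 in control and had means of 14.4 and 1.96 TPM in MT-treated blastocysts, though CLDN5 changed sign after quantile normalization. CLDN23 fell from 151 ± 3.26 to 55.9 ± 3.29 TPM (SD, n = 3 each; adjusted p = 2.24e-07 by limma). CLDN8 fell from 2.11 ± 0.0361 to 0.977 ± 0.139 TPM (SD, n = 3 each; adjusted p = 3.55e-05 by limma). Of the 10 claudins tested, 6 were higher and 2 lower, beside 61.6% and 34.1% of all genes tested. Of the same 10, 4 were at 0 in all control libraries, as were 33.8% of all genes tested.

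**Figure D2:**
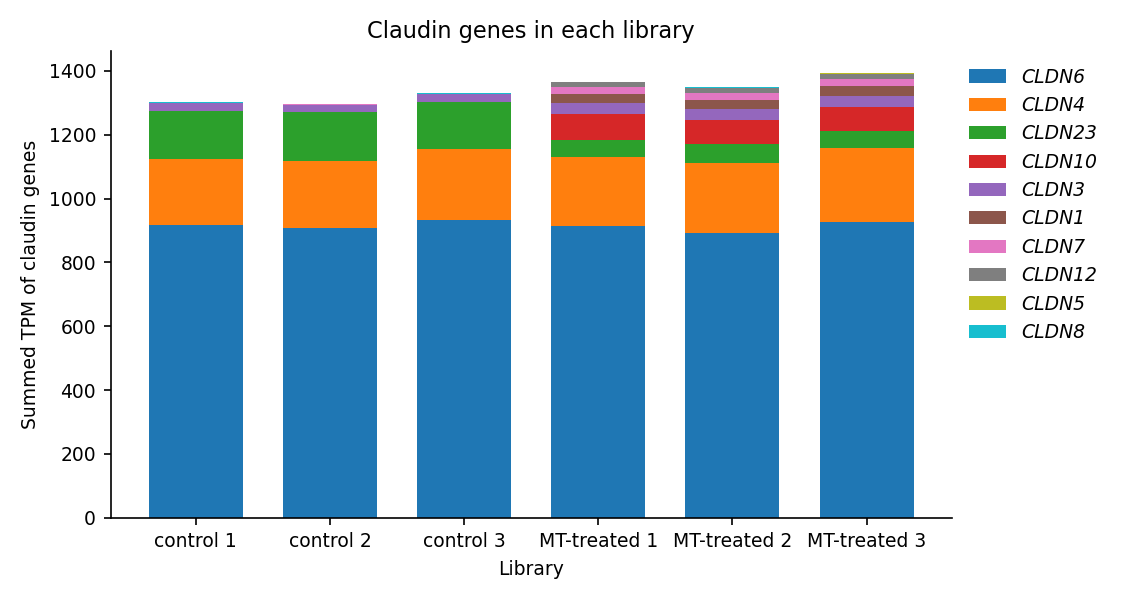
Summed TPM of the 10 claudin genes above 0, stacked by gene, in each of the 3 control and 3 MT-treated libraries, on an axis that starts at 0. CLDN6 and CLDN4 fill most of every bar, while the CLDN23 part is smaller and the CLDN10, CLDN1, CLDN7 and CLDN12 parts appear in the MT-treated libraries.

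DSP (ENSBTAG00000015106) encodes desmoplakin. It had 0.58, 0.48 and 0.54 TPM in control and 13.9, 13.58 and 13.68 TPM in MT-treated blastocysts. All control values were under 1 TPM, and the MT-treated values varied by only 1.19%. The log2 difference was 3.26 (standard error 0.04, adjusted p = 2.21e-09 by limma), and the TPM ratio of 25.7 rests on control values close to 0. The size of the DSP difference depended on the processing, at 0.84 after quantile normalization and 4.45 with a pseudocount of 0.1, while its direction and call did not change in the fits tried. JUP encodes plakoglobin, which binds desmoplakin and can replace beta-catenin on cadherins. It had 66.56, 64.85 and 66.25 TPM in control and 65.72, 68.04 and 69.51 TPM in MT-treated libraries, values that overlapped (adjusted p = 0.209 by limma), although JUP was called higher when centred (0.52), after quantile normalization (0.33) and with rescaling to the same sum (0.08). The ratio of JUP to DSP fell from 115, 135 and 123 to 4.73, 5.01 and 5.08 (exact permutation test, two-sided, p = 0.1, adjusted 0.117).

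**Figure D3:**
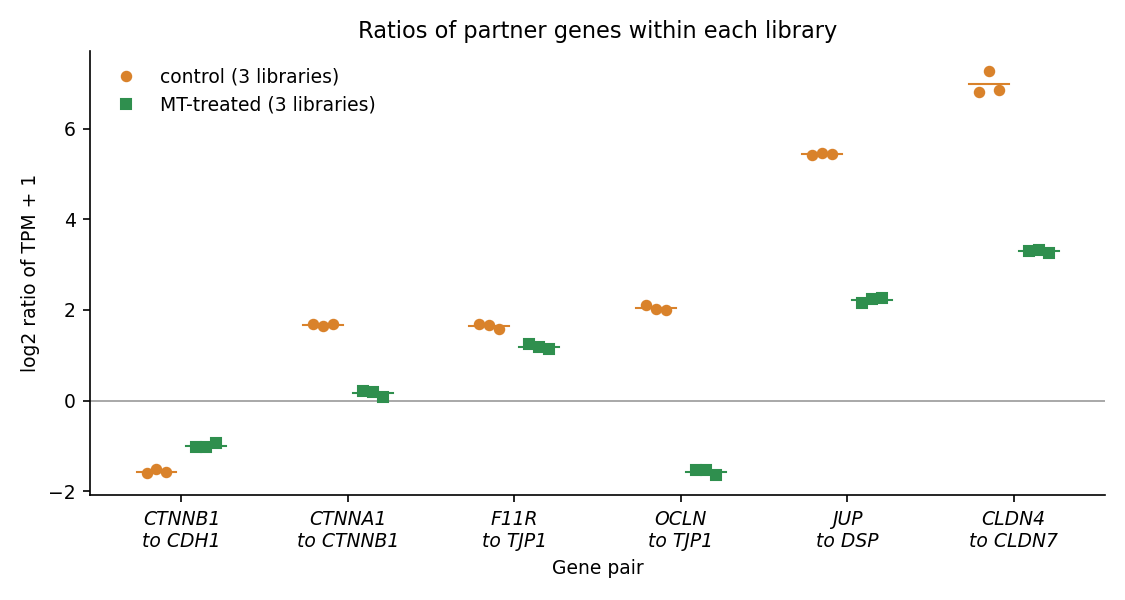
Ratios within each library for 6 pairs of genes, on the vertical axis as the log2 ratio of TPM + 1, with each point a library (circles control, squares MT-treated, 3 each) and each line a group mean. The groups lie apart for all 6 pairs, and OCLN to TJP1 is the only pair that crosses 0.

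In order of level, control blastocysts had CLDN6, CLDN4, OCLN, F11R, CDH1, CTNNB1, TJP1, CLDN7 and DSP. Neighbours in this order overlapped for F11R and CDH1, for CTNNB1 and TJP1, and for CLDN7 and DSP. In MT-treated blastocysts the order was CLDN6, CLDN4, CDH1, F11R, CTNNB1, TJP1, CLDN7, OCLN and DSP, and only OCLN and DSP overlapped. OCLN went from rank 3 to rank 8. The summed TPM of the 9 genes was 1468 to 1501 in control and 1473 to 1523 in MT-treated libraries, and CLDN6 supplied 60.5% to 62.3% of it.

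The profiles most like those of 3 members were found by the root mean square distance of log2(TPM + 1) over the 6 libraries, among tested genes with a symbol. For CDH1 they were HIKESHI (distance 0.06) and UCHL5 (0.06). For CLDN7, the largest rise, they were UBE3C (0.17) and PIP5K1B (0.19), and for OCLN, the largest fall, PDLIM5 (0.11) and MPP7 (0.13). MPP7 had 108.3, 108.48 and 106.93 TPM in control and 15.14, 14.64 and 16.56 TPM in MT-treated libraries. With 2 groups of closely matching libraries, such a distance reflects little more than a pair of group means.

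The scaling changed how many members were called. When centred, 8 of the 9 were higher and OCLN was lower, beside 70.4% higher, 25.4% lower and 4.21% not called among all genes tested. After quantile normalization, 7 were higher, OCLN was lower and CLDN6 was not called, beside 46.4% higher, 44.4% lower and 9.14% not called among all genes tested. Centring adds the same amount to every difference and cannot change the order of the members, whereas after quantile normalization CTNNB1 and TJP1 stood above DSP.

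**Figure D4:**
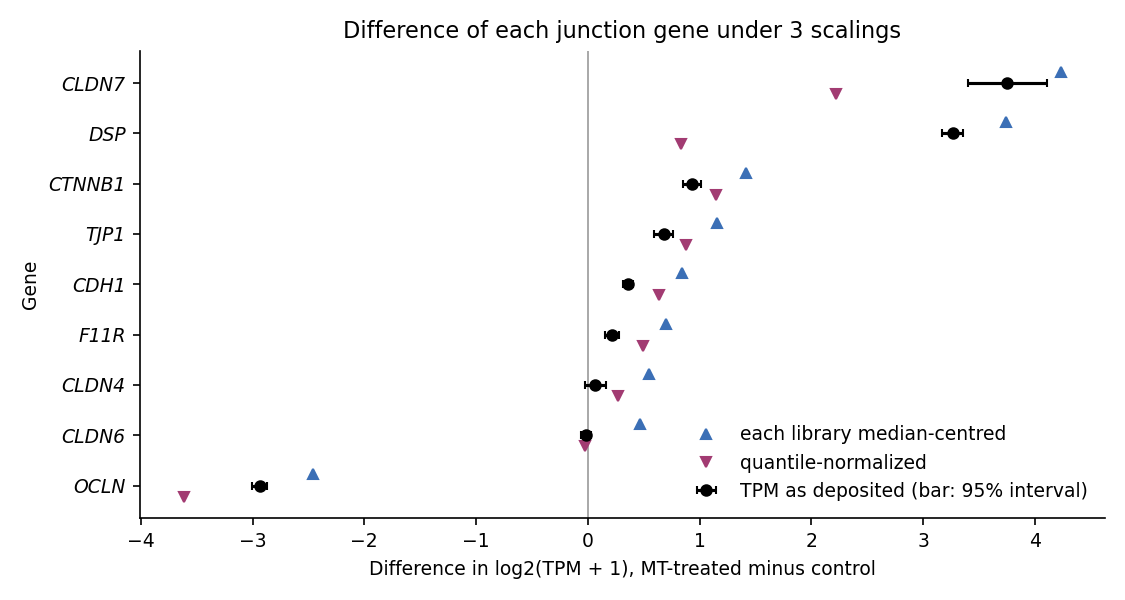
Difference in log2(TPM + 1), MT-treated minus control, for each of the 9 genes with TPM as deposited (circles, with the 95% interval from limma), with each library centred on its median (upward triangles) and after quantile normalization (downward triangles). OCLN lies left of 0 under all 3 scalings, CLDN4 and CLDN6 lie at or near 0 as deposited and right of it when centred, and DSP moves from 3.26 to 0.84 after quantile normalization.

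The wider junction apparatus was read from a list of 147 genes in 8 classes, 146 of them in the table. In all, 95 were tested, of which 50 were higher (52.6%), 33 lower (34.7%) and 12 not called (12.6%). Among all genes tested, 61.6% were higher, 34.1% lower and 4.31% not called, and every class count below stands beside these shares. The median difference of the list was 0.19 beside 1.12 for all genes tested. Of the 95, 17 (17.9%) were at 0 in all control libraries, against 33.8% of all genes tested, so these medians do not rest on like sets of genes. One gene, TMEM47, was at 0 in all MT-treated libraries, as were 3.01% of all genes tested. After quantile normalization 43 were higher and 40 lower, beside 46.4% and 44.4% of all genes tested. When centred, 67 were higher and 23 lower, beside 70.4% and 25.4% of all genes tested.

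In the adherens junction class, 8 of 21 genes were higher, 6 lower and 7 not called, with a median difference of 0.04. The split became 16 higher and 3 lower when centred, and 11 to 8 with quantile normalization. CTNNA3, an alpha-catenin known from heart and testis, and CDH2, the neural cadherin, were at 0 throughout the control group against 102.97, 101.89 and 103.35 TPM and 28.1, 27.36 and 24.71 TPM with MT. The largest falls were in VEZT, a transmembrane partner of the cadherin complex, from 31.9 ± 0.897 to 12.7 ± 0.662 TPM, and in ACTN4, an actin crosslinker, from 81.5 ± 2.90 to 37.4 ± 2.76 TPM (SD, n = 3 each). Among the 7 not called were JUP, VCL and EPCAM, the last 2 chosen after their values were seen. VCL, the vinculin gene, had 28.6 ± 1.24 and 30.1 ± 0.596 TPM, and EPCAM, an epithelial adhesion gene, had 537 ± 8.41 and 526 ± 8.24 TPM in control and MT-treated blastocysts (SD, n = 3 each). Both were called higher when centred, at 0.55 and 0.45, and after quantile normalization, at 0.23 and 0.13. VCL alone was also called with rescaling to the same sum, at 0.11.

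In the tight junction plaque, 9 of 13 genes were higher and 4 lower, beside 61.6% and 34.1% of all genes tested. After quantile normalization 5 were higher and 5 lower, beside 46.4% and 44.4%. Its MAGI scaffold genes went opposite ways. MAGI1 was at 0 throughout the control group against 115.09, 113.55 and 103.95 TPM with MT, and MAGI2 rose from 3.82 ± 0.0781 to 63.3 ± 2.47 TPM, while MAGI3 fell from 149.7 ± 16.7 to 22.7 ± 1.15 TPM (SD, n = 3 each). AMOT, which encodes angiomotin, an adaptor between junctions and Hippo signaling, fell from 14.1 ± 0.235 to 1.83 ± 0.0781 TPM (SD, n = 3 each). All 4 were called (adjusted p from 5.72e-10 to 2.60e-07 by limma), and none changed direction when centred or after quantile normalization.

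Among the other tight junction membrane genes, 4 of 10 were higher and 5 lower, with a median difference of -0.17. The split was 6 higher and 4 lower when centred, and 1 higher and 5 lower after quantile normalization. CXADR, which encodes an adhesion protein of the tight junction, fell from 114 ± 1.41 to 23.2 ± 0.920 TPM (SD, n = 3 each; adjusted p = 6.06e-09 by limma). TMEM47 had 36.53, 35.76 and 37.89 TPM in control and was listed at 0 in every MT-treated library. ILDR2, whose family includes proteins of the corners between 3 cells, was at 0 in control and had 4.06, 3.82 and 4.52 TPM in MT-treated libraries, a rise that was not called after quantile normalization. In the polarity complexes, 11 of 17 genes were higher and 6 lower, beside 61.6% and 34.1% of all genes tested. The counts were 9 and 8 after quantile normalization. LIN7B, part of the Crumbs-linked scaffold, was at 0 in control and had 64.6, 60.48 and 55.33 TPM in MT-treated libraries, and PARD6B, the PAR6 protein that binds atypical protein kinase C, had 0.03, 0 and 0 TPM in control and 30.81, 31.5 and 31.72 TPM in MT-treated libraries. DLG5 fell from 12.1 ± 0.106 to 1.16 ± 0.0208 TPM and STK11, the LKB1 kinase gene, from 20.2 ± 0.560 to 5.58 ± 0.241 TPM (SD, n = 3 each).

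In the desmosome class, 3 of 8 genes were higher and 5 lower, but 4 and 2 when centred. As deposited, DSP had the largest rise, whereas after quantile normalization DSC2 (1.03) stood above DSP (0.84). DSC2, the desmocollin gene, rose from 17.5 ± 0.481 to 36.5 ± 1.54 TPM (SD, n = 3 each; adjusted p = 6.61e-07 by limma). PKP2, a plakophilin gene whose product recruits desmoplakin, fell from 71.3 ± 1.35 to 19.1 ± 1.14 TPM (SD, n = 3 each; adjusted p = 6.08e-08 by limma). DSG3, a desmoglein gene, fell from 32.5 ± 3.31 to 15.8 ± 1.45 TPM (SD, n = 3 each; adjusted p = 6.73e-05 by limma). These directions held when centred and after quantile normalization.

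**Figure D5:**
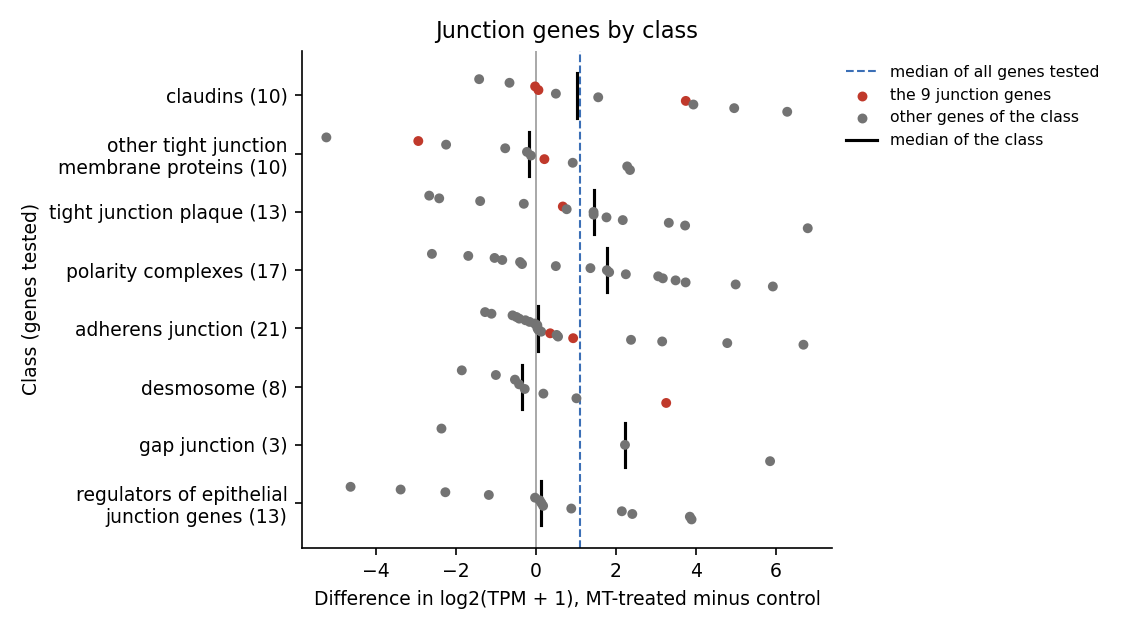
Difference in log2(TPM + 1), MT-treated minus control, for the 95 tested genes of 8 junction classes, with each point a gene (red for the 9 junction genes), black bars for class medians and a dashed line at the median of all genes tested, 1.12. Genes of every class lie on both sides of 0, and the adherens junction genes crowd around their median of 0.04.

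Of the transcription factors and splicing factors that control epithelial junction genes, 7 of 13 were higher and 4 lower. GRHL2, a grainyhead factor that activates CDH1 and claudin genes in epithelia, had 0, 0.04 and 0 TPM in control and 13.66, 14.56 and 14.1 TPM in MT-treated libraries, whereas its relative GRHL3 fell from 40.6 ± 0.217 to 3.00 ± 0.0945 TPM (SD, n = 3 each). OVOL2, a repressor of mesenchymal genes, was at 0 in control and had 11.89, 13.56 and 15.15 TPM in MT-treated libraries. TFAP2A fell from 36.1 ± 3.99 to 0.490 ± 0.0520 TPM (SD, n = 3 each; adjusted p = 1.57e-08 by limma). These 4 directions held when centred and after quantile normalization.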

How the data were processed

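RNA-seq of bovine blastocysts was used from 3 control and 3 MT-treated libraries, grouped and numbered by the sample titles. The deposited values are TPM, given to 2 decimals for each gene in each library. According to the methods, fastp, STAR and featureCounts took the reads to gene counts on ARS-UCD1.3, whereas the submitters' processing notes name ARS-UCD1.2, and the methods name Smart-seq2 where the labels name a TruSeq kit. How counts became TPM is not given in the sources used here. TPM holds no counts, so depth and counting error are unknown and the study's DESeq2 test could not be applied.

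For the test, log2(TPM + 1) of every gene reaching 1 TPM in 3 or more libraries entered limma 3.58.1 (R 4.3.3; lmFit, then eBayes with trend), with Benjamini-Hochberg adjustment over all 11953 genes and a threshold of 0.05. For shares and ratios within a library, the groups were compared by an exact permutation test, two-sided (scipy 1.17.1). Gene neighbours and overlapping spans came from RefSeq on ARS-UCD2.0, where all 9 symbols matched. Its coordinates are not printed, because the builds differ. The members and lists were chosen with earlier results of these data known. Named genes were all members, up to 2 rises and 2 falls per class among called genes without overlap, and partners in ratios, and a few genes that meet this rule, with 1 of the 7 ratios, are not reported here. CXADR, CLDN5, CLDN12 and MARVELD2 were named in addition after their values were seen. The fit was first tested on simulated data in which 200 of 11953 genes differed by known amounts. It recovered 190 of them, with 10 false calls. In the real data 95.7% of genes were called, a setting that the simulation did not cover.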

Additional observations from a re-analysis of the deposited data

How the results depend on the processing

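The fits tried were those with a pseudocount of 0.1, without a filter, with a minimum of 5 TPM, quantile normalization, median centring, rescaling to an equal sum, genes above 0 in all 6 libraries, eBayes without the trend, a replicate block and each library left out in turn. OCLN, CDH1, CTNNB1, TJP1, F11R, CLDN7 and DSP kept their direction and their call in all 15 fits other than the one reported. With genes above 0 in all 6 libraries only, 2814 genes were higher in place of 7367, because genes at 0 in control are left out, and 3626 were lower in place of 4071. In the wider junction list 31 were higher in place of 50 and 32 lower in place of 33. In that fit more genes were thus lower than higher. The difference of CLDN6 turned positive with median centring (0.46) and rescaling (0.0224), and it ranged from -0.0271 to 7.97e-05 as each library was left out. Its top value came without MT-treated replicate 2. That of CLDN4 ranged from 0.0357 without MT-treated replicate 3 to 0.0978 without control replicate 3 and was called in none of these fits. The share of CLDN4 among claudins, a difference of 0.0334 percentage points, ranged from -0.186 to 0.271 as each library was left out, with negative values without control replicate 1, control replicate 2 or MT-treated replicate 3. Same-numbered libraries did not deviate together across the genes tested (Pearson r of -0.01, -0.00068 and 0.06 across genes), so the numbers were not taken as pairs. Over 1006 genes with at least 100 TPM in every library, a set chosen after seeing the data, these correlations were 0.28, 0.39 and 0.49, and each library correlated best with its own number. By the methods, the oocytes of a run were pooled and split at random among the treatments. Whether equal numbers mark a shared run is not stated, so the reported fit may leave out a true pairing. With the replicate block, 7 members were higher in place of 6, since CLDN4 was called (0.07, adjusted p = 0.00744 by limma), and 1 was lower. EPCAM was called lower under the block (-0.03, adjusted p = 0.0282 by limma), while over all genes 7379 were higher and 4082 lower. Without counts, the precision of low values such as those of CLDN7 and DSP in control cannot be given.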

Other observations

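Gap junctions, the channels that connect neighbouring cells, were represented by few connexin genes. Of 15 gap junction genes in the table, 12 were listed at 0 in all 6 libraries, GJA1 among them.

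Several junction genes also have a relative as their chromosomal neighbour. OCLN lies beside MARVELD2, and OCLN fell by 2.94 on the log2 scale while MARVELD2 differed by 0.93. CLDN4 lies beside CLDN3, which rose from 23.7 ± 0.637 to 34.1 ± 0.958 TPM (SD, n = 3 each). CLDN9, the neighbour of CLDN6, was listed at 0 in all 6 libraries, although CLDN6 was the most abundant claudin. CDH3, the neighbour of CDH1, was the least even of these between replicates, with 14.58, 4.95 and 10.98 TPM in control and 5.81, 6.11 and 7.39 TPM in MT-treated libraries, and it was not called (adjusted p = 0.229 by limma). These neighbours were looked up after the values were seen.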
